A study of Homo sapiens with 6 samples.

Results

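The genes described here are 10 genes of the Hippo pathway, chosen by name from the 58735 genes of the expression table. They are the coactivators YAP1 and WWTR1, the DNA-binding factors TEAD1, TEAD3 and TEAD4, the kinases LATS1 and LATS2, and the target genes CYR61, CTGF and AMOTL2. All 10 were listed, and all 10 passed the filter on a mean of at least 1 FPKM that left 12349 genes to test (FPKM, fragments corrected for the length of the gene and the depth of the library). The samples were RNA-seq libraries of HCT116, an established line of human colorectal cancer cells. The CTR group had 3 libraries, labelled as control and WT, and the miR-8485 group had 3 libraries from cells transfected with 50 nM miR-8485 mimics. A mimic is a synthetic RNA with the sequence of a mature miRNA. The study's methods give independent biological replicates and collection at 48 h unless another time is named. The study describes its controls as cells given a control transfection, whose sequence and dose are not given in the sources used here.

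The Hippo pathway restrains growth in response to cell density and tension. Its kinases MST1 and MST2 activate LATS1 and LATS2, which phosphorylate YAP and TAZ, the products of YAP1 and WWTR1, and so keep them in the cytoplasm or mark them for degradation. Unphosphorylated YAP and TAZ enter the nucleus, bind a TEAD factor on DNA and turn on genes such as CYR61 and CTGF. In the intestine YAP is best known for its part in regeneration after injury and in tumour growth. Phosphorylation and location of the proteins are not measured by RNA-seq.

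The libraries held 17473874 to 18480047 fragments on listed genes. The epithelial markers EPCAM, CDH1, KRT8, KRT18, KRT19 and CLDN7 were all present, from 18.7 to 1230 FPKM. Of the markers of other cell types, PTPRC, CD3E and COL1A2 had at most 1 fragment in any library, PECAM1 at most 12 and LYZ at most 15, while COL1A1 had 4.05 to 6.40 FPKM. Of the 6 epithelial markers 3 were downregulated (KRT8, KRT18 and KRT19) and 1 was upregulated (CLDN7). Over all tested genes 59.6% were called in either direction. EPCAM and CDH1 did not pass the threshold given below (log2 fold change of -0.05 for both). The summed level of the 6 markers, most of it from the 3 keratin genes, was 2652 to 2878 FPKM in CTR and 1796 to 1884 FPKM in miR-8485. The summed level of the 6 markers of other cell types, nearly all of it COL1A1, was 4.602 to 4.714 FPKM in CTR and 6.39 to 6.67 FPKM in miR-8485. The part of these markers in the results below was not tested. FPKM is relative to the library, so a loss of some cells and a loss of RNA per cell cannot be told apart.

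Pairing of a miRNA with an mRNA rests mainly on the seed, bases 2 to 8. The mimic has the seed ACACACA, whose match is TGTGTGT. The first sequences to show are therefore the copies of this word in the 3′ UTRs of the 10 genes, taken from the transcripts that GENCODE release 44 tags as canonical (GRCh38). Each line gives 30 bases of the mRNA strand with every copy in capitals. All lie in the 3′ UTR.
CTGF, chr6:131948642-131948671, minus strand: gtaaatatTGTGTGTGTGTGTGTGTGTGTa
LATS2, chr13:20973993-20974022, minus strand: aagtgattTGTGTGTGTGTcttggttgtga
TEAD1 first copy, chr11:12938102-12938131, plus strand: tatagtctTGTGTGTgcagttatattttat
TEAD1 second copy, chr11:12942457-12942486, plus strand: gttgtgttTGTGTGTgctgatgacctagtg
TEAD1 last copy, chr11:12943076-12943105, plus strand: atacgttcTGTGTGTctctacctggcgtct
AMOTL2, chr3:134355991-134356020, minus strand: gaccatgaTGTGTGTctgtatgtttaagtt

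CTGF thus held 8 overlapping copies in a run of alternating T and G of 21 bases, within a 3′ UTR of 1088 bases. LATS2 held 3 overlapping copies in a run of 11 bases, TEAD1 held 3 separate copies in a 3′ UTR of 7515 bases, and AMOTL2 held 1. The canonical 3′ UTRs of YAP1, WWTR1, TEAD3, TEAD4, LATS1 and CYR61 held 0. That of TEAD4 has only 198 bases and that of CYR61 908, while the others have 1447 to 3576. The median over tested protein-coding genes was 1287 bases. Among all tested protein-coding genes with such a 3′ UTR, 3086 of 10675 (28.9%) held at least 1 copy. The ends of the transcripts in these cells were not measured.

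With miR-8485, the 10 genes did not move together. By limma, adjusted over every tested gene by Benjamini-Hochberg, 3 were upregulated (CYR61, TEAD4 and AMOTL2), 4 were downregulated (TEAD1, CTGF, LATS2 and WWTR1), and YAP1, TEAD3 and LATS1 did not pass the threshold of 0.05. Over all tested genes 59.6% passed the threshold, 29.1% upregulated and 30.5% downregulated, so the shares of the 10 genes were near this background. Rescaling to TPM moved the median over all tested genes from -0.0041 to -0.12 on the log2 scale. With TPM 1 of the 10 genes was upregulated and 5 were downregulated. Over all 12349 tested genes TPM gave 2614 upregulated and 4723 downregulated, against 3593 and 3769 before it. The libraries of the groups did not overlap for 8 of the 10 genes, against 66.5% of all tested genes.

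**Figure D1:**
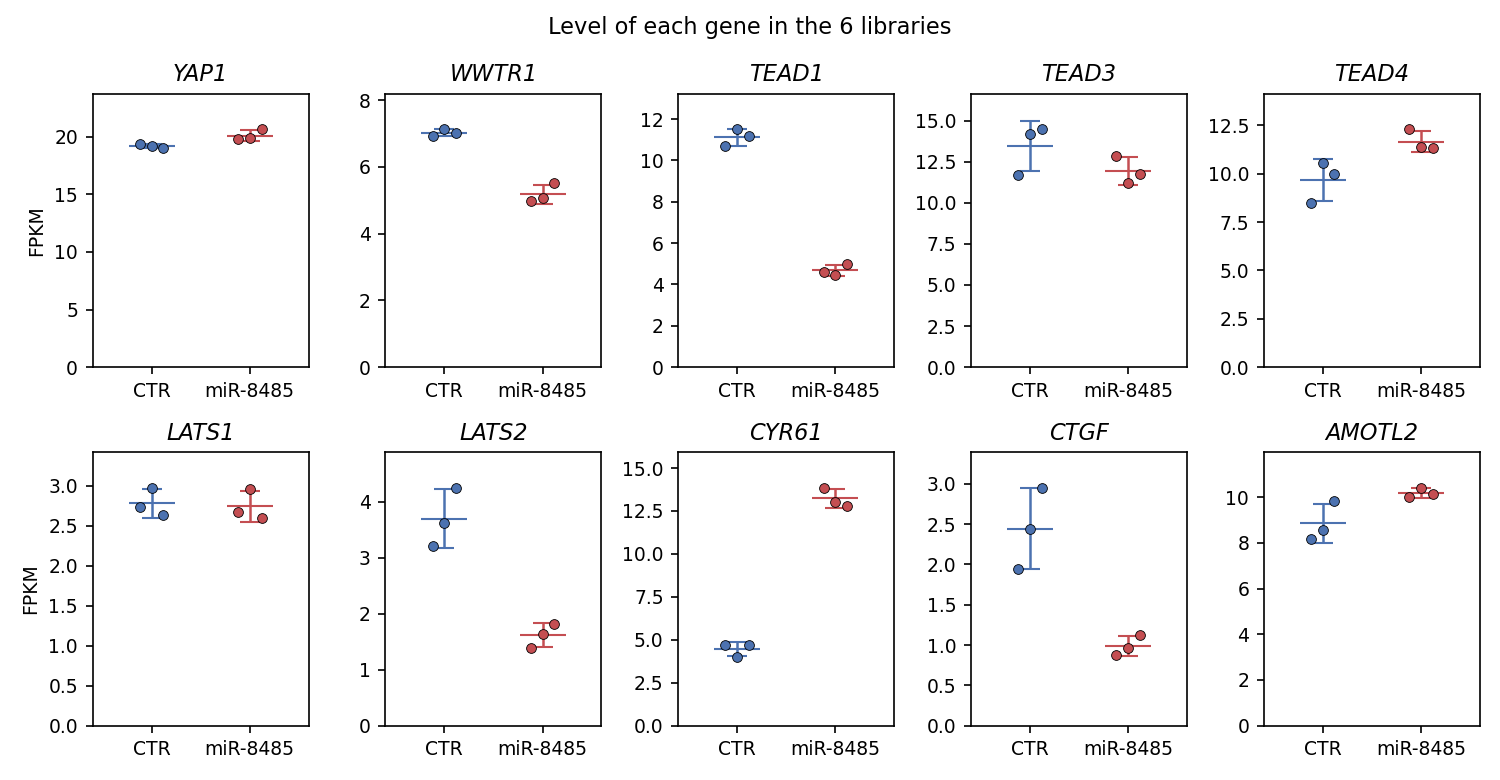
Level of each of the 10 genes in FPKM (vertical axes, each starting at 0) in the 3 CTR and 3 miR-8485 libraries. Points are libraries, and bars are the mean and SD. CYR61 is higher and TEAD1, LATS2, CTGF and WWTR1 are lower in all miR-8485 libraries, while the points of LATS1 and TEAD3 overlap between the groups.

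The coactivators differed from each other. YAP1, on the plus strand of chromosome 11 (chr11:102110461-102233423 of hg38), was the highest of the 10 genes in both groups. It had 19.4, 19.1 and 19.0 FPKM in CTR and 19.7, 19.8 and 20.6 FPKM in miR-8485. Every miR-8485 library was slightly above every CTR library, but the log2 fold change of 0.07 (SE, the standard error, 0.04, 95% confidence interval -0.03 to 0.16) did not pass the threshold (adjusted p = 0.213 in limma) and was -0.05 after rescaling to TPM. WWTR1, which encodes TAZ and lies on the minus strand of chromosome 3 (chr3:149517235-149736714), had 6.93, 7.13 and 7.01 FPKM in CTR and 4.98, 5.05 and 5.51 FPKM in miR-8485. The groups were well apart, with a log2 fold change of -0.43 (SE 0.06, with limma adjusted p = 0.00058). WWTR1 was the downregulated gene of the 10 whose 3′ UTR held 0 copies of the seed match.
WWTR1 made up 26.3% to 27.1% of the summed FPKM of the pair in the CTR libraries and 20.1% to 21.1% in the miR-8485 libraries. The log2 ratio of YAP1 to WWTR1 was 1.45 ± 0.0308 (SD, n = 3) in CTR and 1.96 ± 0.0444 (SD, n = 3) in miR-8485. The exact two-sided permutation test gave p = 0.1, the smallest that 3 libraries against 3 allow. The summed level of the pair was 26.0 to 26.3 FPKM in CTR and 24.7 to 26.2 FPKM in miR-8485, so the ranges overlapped.

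The TEAD factors carry YAP and TAZ on DNA, and their genes differed in direction. TEAD1 (chr11:12674591-12944483, plus strand) had 10.7, 11.5 and 11.2 FPKM in CTR and 4.61, 4.46 and 4.98 FPKM in miR-8485, a mean 2.37-fold lower. Its log2 fold change was -1.23 (SE 0.06, with limma adjusted p = 6.8e-06) and stayed between -1.34 and -1.09 over 15 alternatives. No other TEAD gene fell past the threshold. TEAD3 (chr6:35473597-35497076, minus strand) had 11.7, 14.2 and 14.5 FPKM in CTR and 12.9, 11.2 and 11.8 FPKM in miR-8485. The groups overlapped, and the log2 fold change of -0.17 (95% confidence interval -0.38 to 0.05) did not pass the threshold (adjusted p = 0.161 in limma). It did so after rescaling to TPM (-0.28, adjusted p = 0.0178) and without CTR replicate 1 (-0.26, adjusted p = 0.0154).
TEAD4 (chr12:2959330-3040673, plus strand) had 8.47, 10.5 and 9.995 FPKM in CTR and 12.3, 11.4 and 11.3 FPKM in miR-8485. All miR-8485 libraries were above all CTR libraries, with a log2 fold change of 0.27 (SE 0.09, with limma adjusted p = 0.0268). The call was lost after rescaling to TPM (0.16, adjusted p = 0.0945), with no filter (adjusted p = 0.0749), and with the first or the second miR-8485 library left out (adjusted p = 0.0865 and 0.0515). TEAD2, the remaining TEAD gene, rose from 6.50, 8.40 and 7.44 FPKM to 12.3, 11.3 and 12.2 FPKM. Its log2 fold change was 0.68 (SE 0.09, with limma adjusted p = 0.0006), and the call held under all alternatives run.
As a percent of the summed FPKM of the 4 TEAD genes, TEAD1 had 26.8% ± 1.58 (SD, n = 3) in CTR and 11.7% ± 0.702 (SD, n = 3) in miR-8485. TEAD2 went from 17.8% to 29.7%, TEAD4 from 23.2% to 28.98% and TEAD3 from 32.2% to 29.7%, and for none of the 4 did the ranges of the groups overlap. The sum itself was 37.3 to 44.7 FPKM in CTR and 38.3 to 42.1 FPKM in miR-8485, which overlap. TEAD1 was thus second of the 4 genes in CTR and last in miR-8485. The log2 ratio of TEAD3 to TEAD1 was higher by 1.08 and that of TEAD4 to TEAD1 by 1.52 in miR-8485, with no overlap between the groups (exact permutation p = 0.1 for both).

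**Figure D2:**
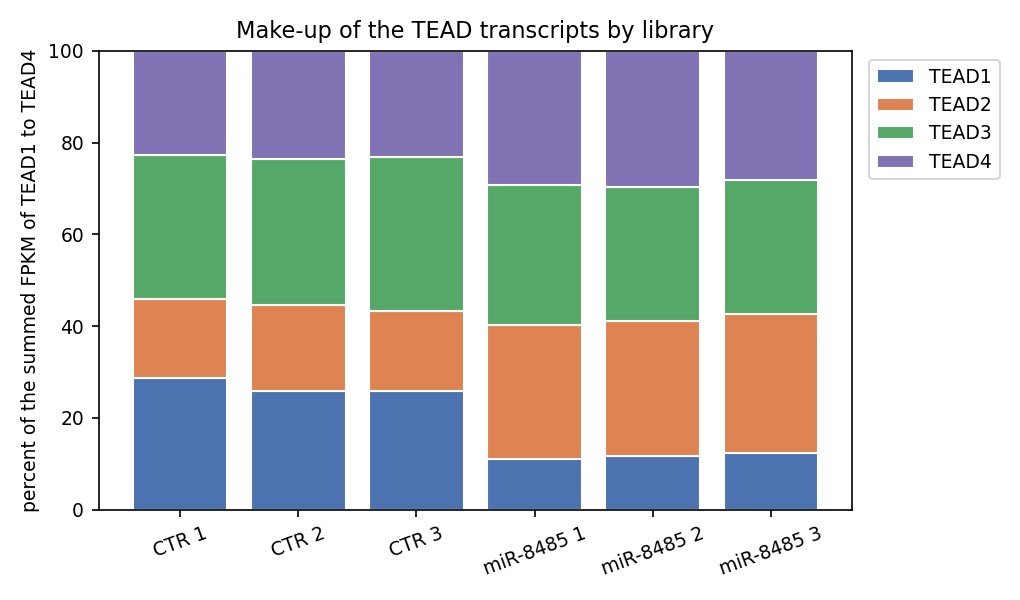
Percent of the summed FPKM of TEAD1, TEAD2, TEAD3 and TEAD4 taken by each gene (vertical axis) in each of the 6 libraries. The TEAD1 part is 25.8% to 28.6% in CTR and 11.0% to 12.4% in miR-8485.

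LATS1 and LATS2 encode the kinases that phosphorylate YAP and TAZ, and LATS2 is also known as a transcriptional target of YAP. LATS1 (chr6:149658153-149718256, minus strand) had 2.73, 2.97 and 2.63 FPKM in CTR and 2.67, 2.96 and 2.59 FPKM in miR-8485. The groups overlapped almost fully, and the log2 fold change was -0.02 (95% confidence interval -0.23 to 0.19, adjusted p = 0.866 in limma). LATS2 (chr13:20973032-21061547, minus strand) had 3.21, 3.63 and 4.25 FPKM in CTR and 1.39, 1.64 and 1.82 FPKM in miR-8485. It was 2.29-fold lower in the mean, with a log2 fold change of -1.15 (SE 0.14, with limma adjusted p = 0.00031), and the call held under all 14 alternatives that could test it.
LATS2 was above LATS1 in every CTR library and below it in every miR-8485 library. The log2 ratio of LATS2 to LATS1 went from 0.40 ± 0.252 (SD, n = 3) to -0.77 ± 0.228 (SD, n = 3), with an exact permutation p of 0.1. The summed level of the kinases was 5.95 to 6.88 FPKM in CTR and 4.06 to 4.59 FPKM in miR-8485.

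The target genes CYR61 and CTGF moved in opposite directions. Both encode secreted matricellular proteins of the CCN family, and both are widely used as readouts of YAP and TAZ. CYR61 (chr1:85580761-85583962, plus strand) had 4.70, 4.01 and 4.70 FPKM in CTR and 13.9, 13.0 and 12.8 FPKM in miR-8485. These values rest on 178 to 209 fragments per CTR library and 578 to 611 per miR-8485 library. The mean was 2.96-fold higher, with a log2 fold change of 1.55 (SE 0.08, with limma adjusted p = 6.5e-06). A rise of at least 1 on the log2 scale past the threshold was found for 3.58% of all tested genes.
CTGF (chr6:131948176-131951373, minus strand) had the lowest mean of the 10 genes in both groups, though its CTR range overlapped that of LATS1. It had 1.94, 2.43 and 2.95 FPKM in CTR and 0.881, 0.969 and 1.12 FPKM in miR-8485, that is 82, 103 and 125 fragments against 37, 41 and 50. The groups did not overlap although the CTR libraries differed among themselves. Its log2 fold change was -1.21 (SE 0.18, with limma adjusted p = 0.00088), and with a pseudocount of 1 it was -0.78. CTGF carries the longest run of seed matches of the 10 genes, and CYR61 carries 0.
Within the CTR libraries the log2 ratio of CYR61 to CTGF was 1.27, 0.72 and 0.67, and within those of miR-8485 it was 3.98, 3.75 and 3.51. The ratio was 7.25-fold higher, the largest shift among the 5 ratios compared, with an exact permutation p of 0.1. After Benjamini-Hochberg adjustment over the 5 ratios each had 0.1, and all 5 were free of overlap between the groups. No such share was computed for ratios of other gene pairs, and 66.5% of single tested genes did not overlap either. Each ratio holds at least 1 gene that was called by itself, and TEAD1 enters both TEAD ratios. The 5 ratios are thus not independent of the single-gene calls.
AMOTL2 encodes a junction protein that binds YAP and is itself induced by YAP (chr3:134355874-134375479, minus strand). It had 8.17, 8.58 and 9.82 FPKM in CTR and 10.002, 10.422 and 10.125 FPKM in miR-8485. The groups lay close together without overlap, and the log2 fold change of 0.20 (SE 0.07) was just past the threshold (adjusted p = 0.0453 in limma). The call was lost under 8 of 15 alternatives, including TPM (0.09, adjusted p = 0.334) and 5 of the 6 fits with a library left out. The limma adjusted p was 0.0075 without CTR replicate 3.

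**Figure D3:**
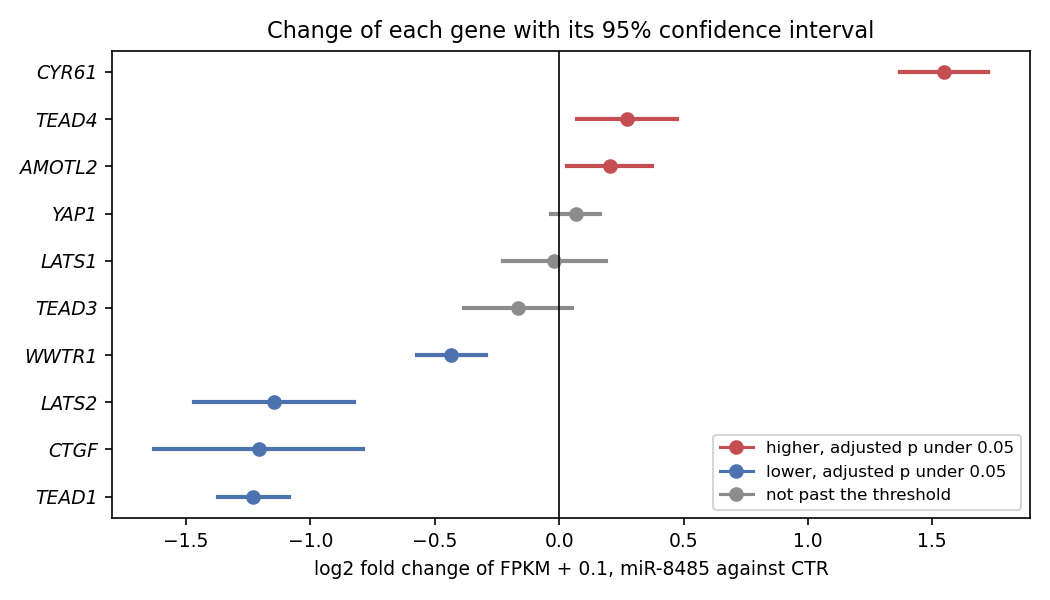
Log2 fold change of FPKM + 0.1 in miR-8485 against CTR (horizontal axis) for the 10 genes, with 95% confidence intervals from limma. The intervals of YAP1, LATS1 and TEAD3 include 0. Those of TEAD1, CTGF and LATS2 lie between -1.63 and -0.79, and that of CYR61 lies between 1.37 and 1.72.

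In the order of levels, CTR ran YAP1, TEAD3, TEAD1, TEAD4, AMOTL2, WWTR1, CYR61, LATS2, LATS1 and CTGF. Neighbours whose library ranges overlapped were TEAD4 and AMOTL2, CYR61 and LATS2, and LATS1 and CTGF. In miR-8485 the order was YAP1, CYR61, TEAD3, TEAD4, AMOTL2, WWTR1, TEAD1, LATS1, LATS2 and CTGF, with overlap between CYR61 and TEAD3, TEAD3 and TEAD4, and WWTR1 and TEAD1. CYR61 thus went from rank 7 to rank 2 and TEAD1 from rank 3 to rank 7. The level of YAP1 in CTR was above that of 80.8% of all tested genes and that of CTGF above 23.2%.

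Set against the seed matches, the 3 genes of the 10 that fell by more than 1 on the log2 scale were TEAD1, LATS2 and CTGF. They held 3, 3 and 8 copies. A fall of more than 1 past the threshold was found for 4.49% of all tested genes. The share of all tested genes that hold as many copies was not computed. Of the 6 genes with 0 copies, CYR61 and TEAD4 were upregulated, WWTR1 was downregulated and the others did not pass the threshold. AMOTL2, with 1 copy, was upregulated. CTGF, with 8 overlapping copies in a single run, had a log2 fold change of -1.21 (SE 0.18). TEAD1, with 3 separate copies, had -1.23 (SE 0.06). A relation between the number of copies and the size of the change was not tested. Of 34 other pathway genes with at least 1 copy, described below, 21 were downregulated and 4 upregulated. Of 22 without a copy, 14 were downregulated and 3 upregulated. SFN, with 14 copies, fell by 1.71 on the log2 scale, while CSNK1E, with 11 copies, rose by 0.25. WWC1, with 0 copies, fell by 1.83. Over all tested protein-coding genes, 44.6% of those with a copy and 29.2% of those without were downregulated, and the former have longer 3′ UTRs (median 2720 against 876 bases).

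**Figure D4:**
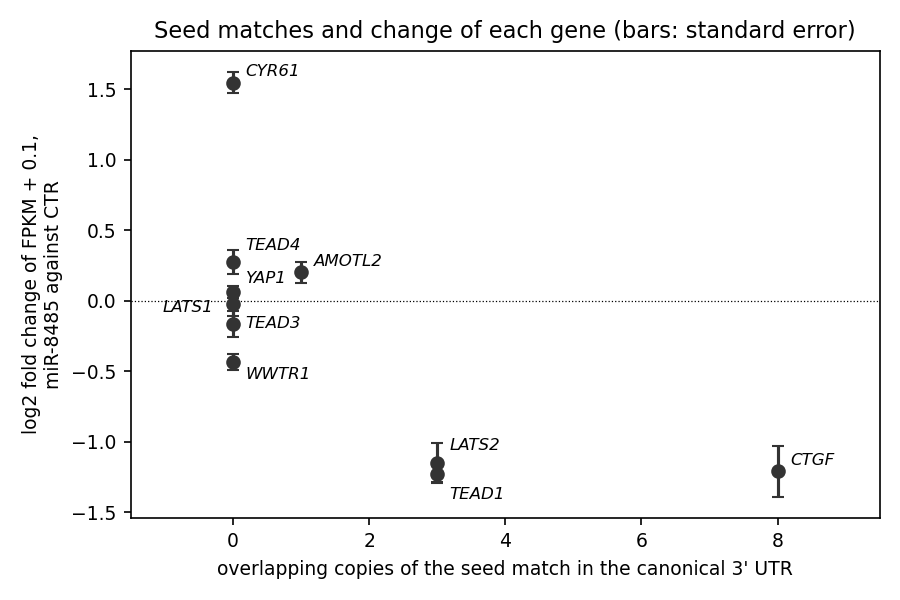
Overlapping copies of the seed match in the canonical 3′ UTR (horizontal axis) against the log2 fold change of FPKM + 0.1 in miR-8485 against CTR (vertical axis, bars are standard errors) for the 10 genes. LATS2 and TEAD1 with 3 copies and CTGF with 8 lie between -1.23 and -1.15, and the 6 genes with 0 copies spread from -0.43 to 1.55.

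The promoters were searched for GGAATG or its complement CATTCC, the core of the element that TEAD factors bind. RefSeq windows of 300 bases (GRCh38.p14, 250 before to 50 after the start) were matched for 7 of the 10 genes, all but TEAD1, TEAD4 and CYR61, with 10 windows in all since WWTR1, LATS1 and AMOTL2 have 2 each. At least 1 copy was found in 4 of the 10 windows, those of CTGF, YAP1 and LATS2 and 1 of the 2 of AMOTL2, and in 14.03% of all 35116 windows. The CTGF window held 3 copies, and 0.128% of all windows held 3 or more. They are printed, in capitals, because CTGF had the most copies of the 7 genes searched.
CTGF, copy 169 bases before the start, chr6:131951524-131951553, minus strand: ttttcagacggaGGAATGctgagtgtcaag
CTGF, copies 104 and 95 bases before the start, chr6:131951459-131951488, minus strand: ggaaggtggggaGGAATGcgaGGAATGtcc
A match is a description of letters and does not show that a factor was bound in these cells.

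Beyond the 10 genes, 65 other genes of the pathway were listed by role, and 56 of them could be tested. Of these 7 were upregulated (12.5%) and 35 were downregulated (62.5%), against 29.1% and 30.5% of all tested genes, and their median log2 fold change was -0.29. The lists were chosen with earlier results of these data known, so this contrast is a description and not a test. After rescaling to TPM the counts were 6 upregulated and 40 downregulated. The TPM counts over all 12349 tested genes were 2614 and 4723, against 3593 and 3769 before it. Of 34 genes with at least 1 copy of the seed match 21 were downregulated (61.8%), and of 22 without a copy 14 were (63.6%). The median 3′ UTR was 3440.5 bases in the former and 1607.5 bases in the latter. The number of copies was not compared over these lists as a whole, and the part of the seed match in these changes was not tested.
The list of upstream kinases and activators held 17 genes, of which 9 were downregulated and 2 upregulated. The largest fall was that of WWC1, which encodes the activator KIBRA, from 10.8, 11.4 and 11.6 FPKM to 3.03, 2.91 and 3.39 FPKM (log2 fold change -1.83, adjusted p = 2.6e-06 in limma). AMOTL1, a relative of AMOTL2, fell by 1.54 on the log2 scale, and STK4, which encodes the kinase MST1, fell by 0.68. The upregulated genes were the kinase genes TAOK2 (0.36) and MAP4K4 (0.28).
The inhibitors of the kinases held 15 genes of the STRIPAK phosphatase complex and the AJUBA family, of which 11 were downregulated and 2 upregulated. AJUBA, which binds and restrains LATS kinases, rose from 8.84, 8.88 and 9.96 FPKM to 17.3, 17.1 and 18.0 FPKM (log2 fold change 0.91, adjusted p = 2.0e-05 in limma). Its relative LIMD1 fell by 1.12 on the log2 scale. Of the STRIPAK genes SLMAP fell by 0.72 and STRIP2 by 0.71, while the phosphatase scaffold PPP2R1A rose by 0.27. Lower levels were thus found among genes on both sides of the kinases.
The genes of cytoplasmic retention and degradation numbered 11, with 8 downregulated and 1 upregulated. SFN, which encodes the 14-3-3 protein sigma, fell from 289, 235 and 250 FPKM to 82.9, 73.8 and 79.2 FPKM (log2 fold change -1.71, adjusted p = 5.8e-06 in limma). YWHAB, another 14-3-3 gene, fell by 0.34 on the log2 scale, and FBXW11, a ubiquitin ligase subunit that recognizes phosphorylated YAP and TAZ, fell by 0.82. CSNK1E, a casein kinase gene, rose by 0.25, but not past the threshold after rescaling to TPM (0.13), without CTR replicate 2 (0.20) or without miR-8485 replicate 1 (0.22).
Among the TEAD cofactor genes, VGLL4, whose product competes with YAP for TEAD, differed by 0.10 on the log2 scale (95% confidence interval -0.15 to 0.35, limma adjusted p = 0.451). VGLL3 lay below 1 FPKM and went from 94, 94 and 75 fragments in CTR to 23, 32 and 22 in miR-8485. Its log2 fold change in the fit of all genes above 0 was -1.20 (adjusted p = 0.033 in limma), and the call was lost with a replicate block (adjusted p = 0.0789) and without CTR replicate 2 or miR-8485 replicate 1 or 3 (adjusted p from 0.0510 to 0.0616). VGLL1 was also below 1 FPKM, and VGLL2 was at 0 in every library.

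Among the other target genes of YAP and TAZ, more were downregulated than upregulated. Of 18 genes, 12 were tested, with 7 downregulated, 1 upregulated and a median log2 fold change of -0.37. Over all tested genes 30.5% were downregulated and 29.1% upregulated, and the median was -0.0041. NT5E, which encodes the ecto-nucleotidase CD73, fell most, from 6.20, 5.94 and 6.22 FPKM to 0.712, 0.842 and 0.834 FPKM (log2 fold change -2.80, adjusted p = 2.2e-06 in limma). F3, the gene of tissue factor, fell by 0.94 on the log2 scale, and the receptor tyrosine kinase gene AXL fell by 0.70.
FJX1 was the upregulated gene among the 12, with a log2 fold change of 0.47. ANKRD1, a strongly YAP-dependent gene that encodes a nuclear ankyrin repeat protein, lay below 1 FPKM. In CTR it had 5, 1 and 4 fragments, and in miR-8485 21, 30 and 22. Its log2 fold change in the fit of all genes above 0 was 2.03 (adjusted p = 0.0095 in limma), and it ranged from 0.61 to 2.92 over the alternatives. ANKRD1 and CYR61 were thus higher with miR-8485, while CTGF, NT5E, F3 and AXL were lower.

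**Figure D5:**
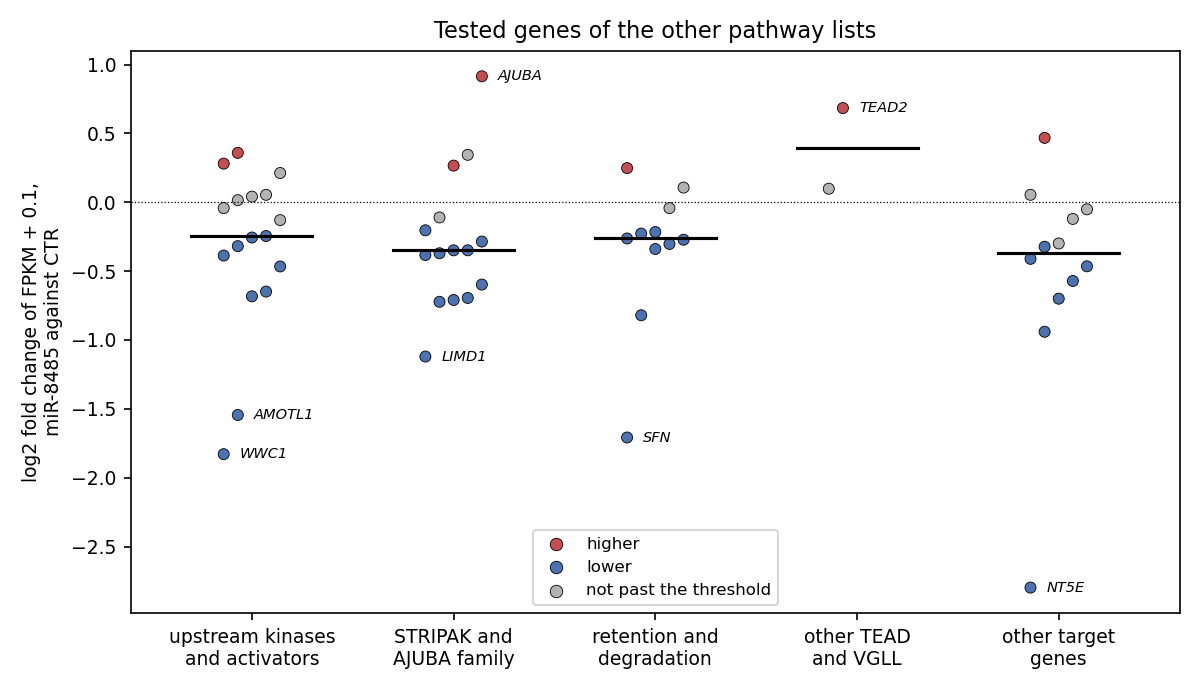
Log2 fold change of FPKM + 0.1 in miR-8485 against CTR (vertical axis) for the tested genes of the 5 lists (horizontal axis). Each point is a gene, coloured by its call at an adjusted p under 0.05, and lines are medians. The medians are -0.25, -0.35, -0.26, 0.39 (2 genes) and -0.37 from left to right.

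Without a known strand setting, fragments of a gene and of an overlapping gene cannot be told apart. Listed genes that overlap the 10 genes by coordinates had at most 8 fragments in any library, the most for WWTR1-AS1, which is antisense to WWTR1. LATS2-AS1 had at most 3.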

How the data were processed

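The libraries were grouped by the titles of the samples, and 0 columns of values were left without a sample. Reads were trimmed (fastp) and aligned to hg38 (HISAT2 version 2.0.5) by the authors, who counted fragments per gene with featureCounts version 1.5.0-p3 (versions from the submitters' processing notes) and deposited FPKM, which divides fragments by gene length and by the library's fragments. The annotation release and the strand setting of the counting are not given in the sources used here. Values above 0 came out as whole multiples of 1 fragment for 100% of genes in each library, and fragments were recovered from them. The tolerance was 0.01, widened in proportion to the fragments for genes with many, so the check says little for the highest genes.

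Two-sided limma (version 3.58.1, R 4.3.3) with a variance trend was run on log2(FPKM + 0.1) for 12349 genes (mean of 1 FPKM or more), with Benjamini-Hochberg adjustment over all of them and a threshold of 0.05. Fold changes on this scale understate those of low genes. Listed genes below the filter were taken from the fit of the 31768 genes above 0. The fit was tested on simulated data. Ratios between related genes within a library were compared by exact permutation. Other steps used Python 3.11.15 with scipy 1.17.1, pandas 2.3.3, numpy 2.4.6 and, for figures, matplotlib 3.10.9.

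The genes and lists were chosen with earlier results of these data known. Besides the 10 genes, TEAD2 and VGLL4 were always named. From each list the text named up to 3 rises and 3 falls, the largest among called genes with no overlap between the groups. It also named the 3 genes with the profile nearest to that of YAP1 and of CYR61. The lists were written from general knowledge of the pathway. The alternatives were other pseudocounts (1 and 0.01), no filter, a filter at 5 FPKM, median-of-ratios scaling, TPM, eBayes without the trend, a replicate block, voom on the recovered fragments, each library left out, and FPKM + 0.1 in the ratios. The other experiments of the study were not analysed here.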

Additional observations from a re-analysis of the deposited data

How the results depend on the processing

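CYR61, TEAD1, LATS2, CTGF and WWTR1 kept their direction and their side of the threshold under every alternative run. The count of upregulated genes among the 10 was 1 with no filter and 1 after rescaling to TPM, against 3, and the cause was not tested, apart from the shift of the median that TPM brings. The count of downregulated genes was 2 at 5 FPKM, since LATS2, CTGF and LATS1 were then not tested. With each library left out, 1 to 3 were upregulated and 4 to 5 downregulated. Of the other pathway genes, 21 were downregulated at 5 FPKM, where 34 were tested, against 35. With each library left out 30 to 35 were downregulated and 6 to 7 upregulated. TPM gave 2614 upregulated and 4723 downregulated genes among all tested, against 3593 and 3769. The fit with a replicate block gave 3 upregulated and 4 downregulated genes among the 10, and 3634 and 3754 over all genes, but libraries of the same number did not deviate together (r of 0.067, 0.033 and -0.064), so the numbers give no pairing. Among the genes named, the block ended the call of VGLL3. The log2 ratios kept their sign with each library left out and with FPKM + 0.1, and with 3 libraries a group no ratio could pass 0.05. CTGF rests on the fewest fragments of the 10 genes.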

Other observations

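The protein-coding genes whose profile over the 6 libraries was most like that of YAP1 were SND1, NUP88 and METTL9. The measure was the Euclidean distance between log2(FPKM + 0.1) values centred on the CTR mean, among 10721 tested protein-coding genes, and it was 0.039, 0.043 and 0.045. For CYR61 the nearest genes were FAM210B, FGFBP3 and PPP1R14B, at 0.23, 0.27 and 0.28, with log2 fold changes of 1.49, 1.54 and 1.43. None of these 6 genes was in a list of the pathway, which says little because the lists hold few of the 10721 genes compared.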
